A study of Mus musculus with 20 samples.

Results

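Cnp, Mbp, Mag, Omg, Mobp and Mog encode proteins of the myelin sheath that are known targets of autoimmune reactions in the nervous system. The match by gene symbol to the deposited table used no values, but the genes were chosen with earlier results of these data known. Each of the 6 symbols matched 1 row among 51810 genes, and 5 of the 6 passed the filter on low counts that left 28932 genes for testing. Mog, with 52 fragments over all libraries, did not pass.

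Medullary thymic epithelial cells (mTEC) display proteins of many tissues to developing T cells, which removes or diverts T cells that react to them. Mature mTEC carry the regulator Aire and a broad set of tissue antigens. Myelin is the lipid-rich membrane that oligodendrocytes wrap around axons, and immunisation with its proteins causes experimental autoimmune encephalomyelitis, a mouse model of multiple sclerosis. Compact myelin depends on basic proteins at the cytoplasmic face (Mbp, Mobp), whereas Cnp sits in the channels that stay open, Mag faces the axon, Omg is tethered to the membrane by a lipid anchor, and Mog lies on the outermost surface.

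The libraries came from mTEC of mouse thymi at 4 to 5 weeks of age, with EpCAM-positive cells enriched and 75000 mTEC sorted per sample. The 4 groups were Trp53-WT mTEClo, Trp53-cHyper mTEClo, Trp53-WT mTEChi and Trp53-cHyper mTEChi, written below as WT or cHyper with the cell type, and each had 3 libraries. Trp53 encodes the p53 tumour suppressor. The sources used here do not state what cHyper stands for, what drives it or the sorting gates. By convention mTEClo and mTEChi are less and more mature cells. Nothing in the labels ties the replicates to different mice, and every p-value below reflects only how far libraries of a group lie apart, which may be technical.

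Totals were 42075886 to 47926607 fragments in replicates 1 and 2 of the groups and 22023800 to 25306137 in replicate 3, the replicate with a single run. Trp53 ran at 136 to 138 CPM (counts of fragments scaled to library size with TMM) in WT mTEClo, 154 to 177 CPM in cHyper mTEClo, 98.0 to 107 CPM in WT mTEChi and 129 to 138 CPM in cHyper mTEChi. Its adjusted p for genotype was 0.0553 in mTEClo and 0.02 in mTEChi. Epcam, the sorted epithelial marker, was at 413.6 to 622.8 CPM in all libraries. Aire averaged 14.3 ± 2.6 CPM (SD, n = 3) in WT mTEClo and 1920 ± 2.83 CPM (SD, n = 3) in WT mTEChi, so the labelled stages were distinct.

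RefSeq (GRCm38.p6) start sites were listed for 4 of the 6 genes, Cnp, Mag, Mobp and Mog. The stretches upstream of these starts are shown because Cnp and Mobp were both called higher in mTEChi, while Mag was not called by edgeR, and because the genotype concerns p53. They were searched on both strands, over 250 bases before the start, for the MYRF motif CTGGCAC or CTGGTAC and the SOX motif ACAAAG or ACAATG. Also searched were the TATA box TATAAA and the p53 half-site RRRCWWGYYY. In the last, R is A or G, W is A or T and Y is C or T. Matches are in capitals, 5′ to 3′ along each gene, and no matches of different motifs overlapped.
Cnp (chr11:100574689-100574903, plus strand): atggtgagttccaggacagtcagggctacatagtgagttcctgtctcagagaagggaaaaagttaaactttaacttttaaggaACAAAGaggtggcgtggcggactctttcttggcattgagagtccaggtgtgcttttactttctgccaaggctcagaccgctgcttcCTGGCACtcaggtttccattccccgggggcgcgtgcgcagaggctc
Mobp (chr9:120149492-120149706, plus strand): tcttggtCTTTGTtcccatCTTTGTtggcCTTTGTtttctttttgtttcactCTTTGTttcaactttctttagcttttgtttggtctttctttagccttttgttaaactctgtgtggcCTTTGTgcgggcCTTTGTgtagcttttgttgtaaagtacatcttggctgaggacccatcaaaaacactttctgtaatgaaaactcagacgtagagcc
Mag (chr7:30914923-30915172, minus strand): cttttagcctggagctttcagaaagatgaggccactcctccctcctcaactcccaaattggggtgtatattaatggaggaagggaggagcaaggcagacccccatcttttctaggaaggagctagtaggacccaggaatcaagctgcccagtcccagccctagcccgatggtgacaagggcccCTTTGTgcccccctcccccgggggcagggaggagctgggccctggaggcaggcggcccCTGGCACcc
Mog (chr17:37023399-37023648, minus strand): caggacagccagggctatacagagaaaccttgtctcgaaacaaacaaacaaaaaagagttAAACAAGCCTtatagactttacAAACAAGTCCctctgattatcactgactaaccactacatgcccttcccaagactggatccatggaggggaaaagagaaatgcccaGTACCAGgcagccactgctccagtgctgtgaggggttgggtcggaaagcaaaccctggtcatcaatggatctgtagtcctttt
The last 35 of the 250 bases for Cnp and for Mobp are annotated as exon and are not shown. For Mag the most upstream of its listed starts was used.

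The Cnp, Mag and Mog stretches each held 1 MYRF match, which occurred in 5.93% of 32851 windows of this length upstream of mouse genes. Mobp held 6 SOX matches, each written here as the reverse complement CTTTGT, and Cnp and Mag held 1 each. A SOX match occurred in 25.2% of windows. Mog held 2 p53 half-sites, at 190 to 181 and 168 to 159 bases before the start. Half-sites at most 13 bases apart were found in 0.0639% of windows, and a single half-site in 7.13%. No stretch held a TATAAA match, present in 12.4% of windows. These are matches of letters, and binding was not measured. Cnp was the richest in CpG, with 13 in its 250 bases against a median of 6, and Mog had 2.

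In the deposited TPM, which adjust for gene length, the 6 genes spanned a wide range of levels. Cnp was the highest in every group, at 51.2 ± 4.21 TPM in WT mTEClo and 251 ± 6.83 TPM in WT mTEChi (SD, n = 3). In WT mTEChi it stood above 98.7% of the 42943 genes with a TPM over 0. Mbp came next, at 10.48 ± 0.819 TPM in WT mTEClo and 30.6 ± 2.92 TPM in WT mTEChi (SD, n = 3). Mag followed at 4.05 ± 1.47 and 5.07 ± 1.01 TPM (SD, n = 3) in the same groups.

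Below them, Omg was at 2.66 ± 0.409 TPM and Mobp at 0.753 ± 0.147 TPM in WT mTEChi (SD, n = 3). Mog was the lowest there, at 0.155 ± 0.0359 TPM (SD, n = 3), above 17.2% of genes. In WT mTEChi no neighbours in this order overlapped between libraries, and the order was the same in cHyper mTEChi, where only Mobp, at 0.372 to 0.584 TPM, and Mog, at 0.107 to 0.427 TPM, overlapped. In mTEClo the 3 lower genes overlapped, apart from Omg, which lay above Mobp in all cHyper libraries. Omg there reached at most 0.392 TPM, Mog at most 0.154 TPM, and Mobp at most 0.0153 TPM. Cnp made up 77.6% of the summed TPM of the 6 genes in WT mTEClo and 86.5% in WT mTEChi.

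**Figure D1:**
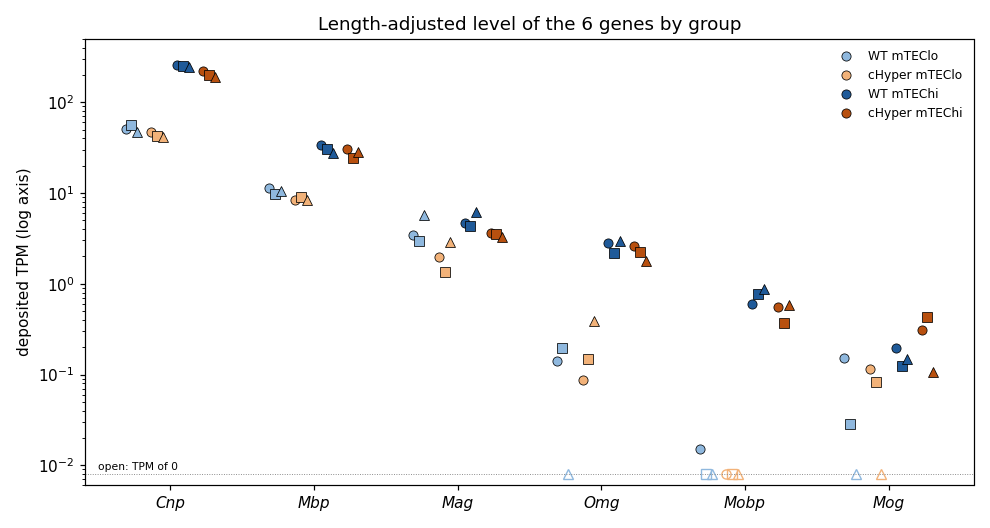
Deposited TPM (log axis) of the 6 genes, 1 point per library, with colours for the 4 groups and circle, square and triangle for replicates 1, 2 and 3. Open symbols on the dotted line are libraries listed at 0. The genes keep 1 order in WT mTEChi, from Cnp at 251 TPM on average down to Mog at 0.155 TPM.

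The comparison of mTEChi with mTEClo asked how the antigens differed between the less and the more mature cells. Cnp, Mbp, Omg and Mobp were higher in mTEChi in both genotypes, by 2.55-fold for Mbp and 4.28-fold for Cnp in WT and by far larger ratios for Omg and Mobp. Mag was not called by edgeR in either genotype, although DESeq2 and limma-voom called it higher in cHyper, and Mog was too sparse to test. By edgeR's quasi-likelihood test, 4 of the 5 tested genes were called higher and 0 lower at an adjusted p under 0.05 in WT, where 40.2% of all tested genes were called higher and 29.4% lower. In cHyper the counts were also 4 and 0, against 38.7% and 25.8% of all tested genes. No member was lower at an unadjusted p under 0.05, nor was any called lower by DESeq2 or limma-voom. Mobp and Omg entered the test through their mTEChi libraries, so a difference between the cell types was built into their passing the filter. In WT 4 of the 5 were without overlap between the cell types, against 41.8% of all tested genes upward and 31.4% downward, and in cHyper 5 of 5, against 40.3% and 28.4%. The median log2 change over all tested genes was 0.12 in WT and 0.13 in cHyper.

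**Figure D2:**
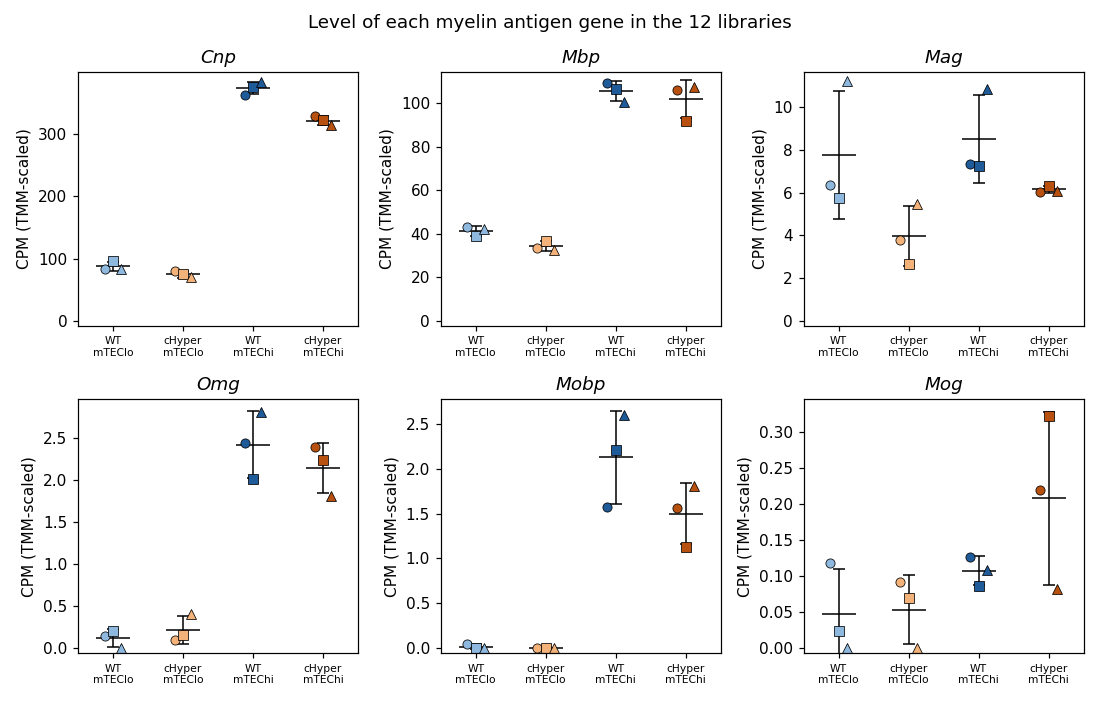
TMM-scaled CPM of each gene (linear axis, separate scale per panel) in the 12 libraries, by group, with the mean and SD of 3 libraries as bars and circle, square and triangle for replicates 1, 2 and 3. Cnp, Mbp, Omg and Mobp separate mTEChi from mTEClo, and Mag and Mog do not separate the cell types in WT.

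Cnp encodes the myelin enzyme cyclic nucleotide phosphodiesterase, which is abundant in oligodendrocytes and also made in other cells. Its 3 WT mTEClo libraries held 83.7, 95.7 and 82.4 CPM, and the 3 WT mTEChi libraries held 363, 375 and 384 CPM. In cHyper the values were 80.8, 74.7 and 69.6 CPM in mTEClo and 328, 322 and 314 CPM in mTEChi. Every mTEChi library was far above every mTEClo library. The log2 change was 2.099 ± 0.0953 (SE) in each genotype, with edgeR adjusted p of 1.83e-10 in WT and 3.34e-10 in cHyper. Cnp (ENSMUSG00000006782) lies on chromosome 11 from 100574904 to 100591729 (mm10, plus strand) and shares 154 exon bases with Dnajc7 on the other strand. The sources used here do not state whether the counting used strand. Dnajc7 was at 152 ± 26.0 CPM in WT mTEClo and 151 ± 20.1 CPM in WT mTEChi (SD, n = 3).

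Mbp encodes the basic protein that holds the cytoplasmic faces of compact myelin together, and the same gene also gives the longer golli transcripts, which are known in thymus and immune cells. Counts per gene do not separate the transcripts. Mbp was at 43.3, 38.9 and 42.4 CPM in WT mTEClo and at 110, 107 and 101 CPM in WT mTEChi. In cHyper it was at 33.7, 36.8 and 32.7 CPM in mTEClo and at 106, 91.9 and 108 CPM in mTEChi. The cell types did not overlap in either genotype. The log2 change was 1.35 ± 0.0937 (SE) in WT (edgeR adjusted p 9.86e-09) and 1.57 ± 0.0944 in cHyper (3.4e-09). Mbp (ENSMUSG00000041607) lies on chromosome 18 from 82475146 to 82585637 (mm10).

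Mobp encodes a small basic protein of compact myelin that is abundant in the central nervous system. The WT mTEClo libraries held 2, 0 and 0 fragments of Mobp and the WT mTEChi libraries 74, 102 and 72. In cHyper all 3 mTEClo libraries held 0 fragments, and the mTEChi libraries held 71, 49 and 44. Mobp was thus at or near 0 in every mTEClo library and present in every mTEChi library. In WT the ratio of the scaled group sums was 109.5, with an exact 95% interval of 29.99 to 909.1 that covers counting error only. In cHyper mTEChi was at least 54.0-fold higher, set against a floor of 3 fragments over the mTEClo group. The edgeR adjusted p was 9.22e-07 in WT and 1.35e-06 in cHyper. Mobp (ENSMUSG00000032517) lies on chromosome 9 from 120149707 to 120181484 (mm10, plus strand). It shares 79 exon bases with an entry of the symbol Gm38642 (ENSMUSG00000111219), and that entry had 27 fragments in all.

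Omg encodes oligodendrocyte myelin glycoprotein, a ligand of the Nogo receptor. Its mTEClo libraries held 6, 9 and 0 fragments in WT and 4, 7 and 10 in cHyper. The mTEChi libraries held 115, 93 and 78 fragments in WT and 109, 97 and 44 in cHyper. All 6 mTEChi libraries were above all 6 mTEClo libraries. The log2 change was 4.12 ± 0.506 (SE) in WT (edgeR adjusted p 4.32e-06) and 3.43 ± 0.483 in cHyper (2.03e-05). Omg (ENSMUSG00000049612; chromosome 11, 79500982 to 79504084, mm10, minus strand) lies inside Nf1 on the opposite strand and shares no exon base with it. Nf1 went the other way, from 68.6 ± 9.64 CPM in WT mTEClo to 42.0 ± 4.81 CPM in WT mTEChi (SD, n = 3; edgeR adjusted p 0.000162). Evi2, a neighbouring gene 9301 bases away, was at 0.287 ± 0.192 and 3.49 ± 0.145 CPM in the same groups.

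Mag encodes myelin-associated glycoprotein, a sialic acid-binding adhesion molecule that also binds the Nogo receptor. It was at 6.35, 5.74 and 11.2 CPM in WT mTEClo and at 7.34, 7.25 and 10.9 CPM in WT mTEChi. In cHyper it was at 3.79, 2.64 and 5.46 CPM in mTEClo and at 6.04, 6.32 and 6.09 CPM in mTEChi. Replicate 3 was the highest library in 3 of the 4 groups, and in WT the cell types overlapped. The log2 change of 0.14 ± 0.276 (SE) in WT missed the threshold (edgeR adjusted p 0.672). In cHyper the cell types did not overlap, and the log2 change was 0.65 ± 0.285 (SE; edgeR adjusted p 0.0581). DESeq2 (0.0349) and limma-voom (0.0269) gave an adjusted p under the threshold there, as did edgeR with the replicate block (0.00641), with library totals (0.0311), with no filter (0.0345) and with replicates 1 and 2 alone (0.00345). Leaving out replicate 3 of WT mTEClo (0.0372) or replicate 3 of cHyper mTEClo (0.0149) also brought it under the threshold. Mag (ENSMUSG00000036634) lies on chromosome 7 from 30899176 to 30914873 (mm10, minus strand).

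Mog encodes the myelin surface protein most used to induce experimental autoimmune encephalomyelitis. Its libraries held 5, 1 and 0 fragments in WT mTEClo and 4, 3 and 0 in cHyper mTEClo. The mTEChi libraries held 6, 4 and 3 fragments in WT and 10, 14 and 2 in cHyper. The groups overlapped, and most libraries held fewer than 10 fragments. The ratio of scaled sums of mTEChi to mTEClo was 1.91 in WT, with an exact 95% interval of 0.678 to 6.14, and 3.67 in cHyper, with an interval of 1.55 to 10.0. The intervals cover counting error only. With no filter, edgeR gave Mog an adjusted p of 0.48 in WT and 0.131 in cHyper, so no difference was detectable at this depth. Mog (ENSMUSG00000076439) lies on chromosome 17 from 37010743 to 37023398 (mm10, minus strand).

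The nearest tested genes on either side of each member did not share 1 direction in WT mTEChi against WT mTEClo. Beside Mog, Zfp57 lay 108 bases and Gabbr1 22568 bases away, and they fell by 2.63 (edgeR adjusted p 2.34e-07) and 1.93 (8.48e-10) on the log2 scale. Beside Mbp, Galr1 rose by 2.32 (0.00261), and Zfp236 had a value of -0.16 (0.292). Beside Mag, D7Ertd128e held 1 fragment in WT mTEClo and 64 in WT mTEChi, and Gm44662 had a log2 value of 0.35 (0.382).

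Beside Mobp, Rpsa had a log2 value of -0.10 (edgeR adjusted p 0.538). A tested lincRNA 11605 bases away held 0 fragments in WT mTEClo and 88 in WT mTEChi. That lincRNA is another entry of the symbol Gm38642 (ENSMUSG00000111360). AU040972, on the other side of Omg from Evi2, fell by 2.13 on the log2 scale (0.0023). Beside Cnp, Ttc25 fell by 0.49 (0.0267), and Nkiras2 had a value of 0.31 (0.0542). Both values are small beside that of Cnp, 2.099.

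The comparison of cHyper with WT asked whether the genotype moved the antigens. In mTEClo Mag was lower in cHyper, at a mean of 3.96 ± 1.41 CPM against 7.77 ± 2.998 CPM in WT (SD, n = 3). The per-library values stand above, and the highest cHyper library, at 5.46 CPM, was just under the lowest WT library, at 5.74 CPM. The log2 change was -0.97 ± 0.285 (SE), a 1.96-fold decrease, with an edgeR adjusted p of 0.0471 and, over the alternatives, of 0.0064 to 0.196. It was the only call, 1 lower and 0 higher of the 5 tested, where 4.64% of all tested genes were called lower and 4.53% higher. No member was higher at an unadjusted p under 0.05, and none was called higher by DESeq2 or limma-voom. The Mag call was close to the threshold and ended, with the same direction, when any of 9 of the 12 libraries was left out. Without replicate 3 of WT mTEClo the log2 change was -0.64 (edgeR adjusted p 0.196), and without replicate 2 of cHyper mTEClo it was -0.74 (0.175). In the other 7 of these fits it stayed between -0.96 and -1.095. Among them were the fits without replicate 1 or 2 of WT mTEChi or without any 1 cHyper mTEChi library, all outside the compared groups. Their edgeR adjusted p was 0.0571 to 0.0674. With the replicate block Mag stayed called lower, at a log2 change of -0.96, as given in the last section.

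Mbp and Cnp had lower values in every cHyper mTEClo library than in any WT mTEClo library. With Mag, 3 of the 5 tested genes were separated in this way, against 12.6% of all tested genes. Mbp averaged 34.4 ± 2.14 CPM in cHyper and 41.5 ± 2.32 CPM in WT (SD, n = 3), a log2 difference of -0.27 ± 0.0932 (SE) with an edgeR adjusted p of 0.0892. For Cnp the means were 75.0 ± 5.59 and 87.3 ± 7.31 CPM (SD, n = 3), a log2 difference of -0.22 ± 0.0921 (edgeR adjusted p 0.168). Neither passed edgeR's threshold, and both did in DESeq2, with adjusted p of 0.0341 for Mbp and 0.0399 for Cnp. Omg, with 21 fragments in cHyper and 15 in WT, did not differ detectably (edgeR adjusted p 0.687). Mobp had 0 and 2 fragments, too few for a ratio. For Mog, 7 fragments in cHyper and 6 in WT gave a ratio of 1.115 with an exact interval of 0.321 to 4.02 for counting error.

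In mTEChi 0 members were called in either direction by edgeR, where 1.56% of all tested genes were called higher and 0.418% lower. With the replicate number as a block, 942 genes in place of 451 were higher and 309 in place of 121 lower, and still 0 members were called. Cnp alone was lower at an unadjusted p under 0.05. DESeq2 called that gene lower and limma-voom called none. Cnp averaged 321 ± 7.17 CPM in cHyper and 374 ± 10.2 CPM in WT (SD, n = 3), and the groups did not overlap. Its log2 difference was -0.22 ± 0.0913 (SE), with an adjusted p of 0.279 by edgeR and 0.0191 by DESeq2. Mag also lay lower in every cHyper library, at 6.15 ± 0.151 against 8.49 ± 2.06 CPM (SD, n = 3; log2 -0.46 ± 0.277, edgeR adjusted p 0.462). Such separation, seen in 2 of the 5 tested genes, was found downward in 13.3% of all tested genes.

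The remaining members overlapped between the genotypes in mTEChi. Mbp differed by a log2 of -0.05 ± 0.0915 (SE; edgeR adjusted p 0.826) and Omg by -0.16 ± 0.374 (0.881). Mobp had 164 fragments in cHyper and 248 in WT, a log2 difference of -0.51 ± 0.354 (SE; edgeR adjusted p 0.537). Mog had 26 fragments in cHyper and 13 in WT. That ratio was 2.14, with an exact interval of 1.06 to 4.53 for counting error only, while the libraries overlapped and the unfiltered edgeR adjusted p was 0.699. The Mog count was higher in 2 of the 3 cHyper libraries than in any WT library.

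**Figure D3:**
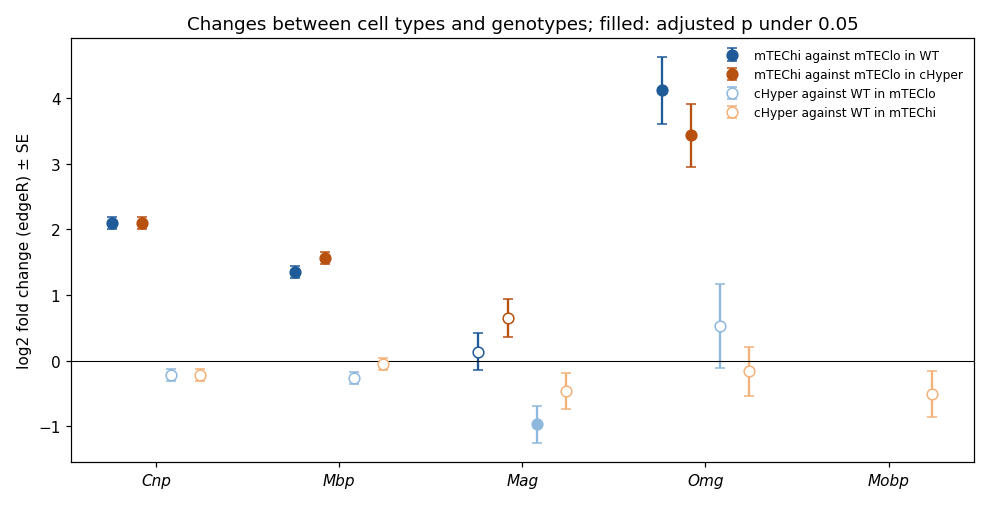
edgeR log2 fold changes with their SE for the 5 tested genes in 4 comparisons, filled where the adjusted p was under 0.05. Mobp is drawn for the genotypes in mTEChi alone, since its mTEClo groups held 2 and 0 fragments. The cell type changes of Cnp, Mbp and Omg lie well above 0, and of the genotype changes only that of Mag in mTEClo is filled.

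The difference of the genotype effects between mTEChi and mTEClo was tested as an interaction. No member was called, where 2.06% of all tested genes were, and none reached an unadjusted p under 0.05 or a call by DESeq2 or limma-voom. The edgeR adjusted p ran from 0.501 for Mbp to 1.0 for Cnp. The Mag decrease in mTEClo was therefore not shown to differ from the value in mTEChi (interaction adjusted p 0.623).

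Other genes of myelin and of the nervous system were described from lists chosen with earlier results of these data known. Of 19 other structural myelin genes, 14 were higher and 5 lower in WT mTEChi than in WT mTEClo, with a median log2 change of 1.82. For all tested genes the shares were 40.2% higher and 29.4% lower, so the count of lower genes was near its share. Opalin, an oligodendrocyte membrane protein, held 408 fragments in WT mTEChi and 0 in WT mTEClo, at least 120-fold higher against the floor of 3 fragments. Ermn, a cytoskeletal protein of oligodendrocytes, rose by a log2 of 6.81 ± 0.309 (SE; edgeR adjusted p 1.84e-10). Nfasc, an adhesion molecule of the node of Ranvier, rose by 3.22 ± 0.127 (7.99e-11) and Hapln2, a matrix link protein at nodes, by 5.73 ± 0.431 (2.32e-08). In cHyper 13 of the 19 were higher and 4 lower, against 38.7% and 25.8% of all tested genes.

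Of 10 transcription factors of the oligodendrocyte lineage, 8 were higher and 2 lower in WT mTEChi, with a median log2 change of 3.53, where 40.2% of all tested genes were higher. Sox10, Olig2, Nkx2-2 and Zfp488 held 2, 3, 10 and 3 fragments in WT mTEClo and, like Mobp and Omg, entered the test through mTEChi, so their difference was built in, as was that of genes near 0 in mTEClo in the other lists. In cHyper 8 were higher and 0 lower, and 2 of the 10 missed the threshold in either direction. Sox10, a regulator of myelinating glia, held 811 fragments in WT mTEChi and 2 in WT mTEClo, a ratio with an exact interval of 98.8 to 2961 for counting error. Myrf, which drives myelin genes in oligodendrocytes, rose by a log2 of 3.43 ± 0.227 (SE; edgeR adjusted p 5.8e-09). Olig1, another lineage factor, rose by 4.15 ± 0.354 (8.94e-08). Zfp488 had 217 and 3 fragments, a ratio with an exact interval of 21.6 to 312.

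Genes of myelin lipid synthesis were higher in 6 and lower in 1 of 9 in each genotype. Over all tested genes the shares were 40.2% higher and 29.4% lower in WT and 38.7% and 25.8% in cHyper. In WT Fa2h, which hydroxylates myelin fatty acids, rose by a log2 of 5.32 ± 0.466 (SE; edgeR adjusted p 1.2e-07), and Ugt8a, which makes galactosylceramide, by 3.90 ± 0.408 (8.11e-07). The sterol enzyme Hmgcs1 rose by 1.16 ± 0.123 (9.29e-07) and the fatty acid elongase Elovl7 by 0.98 ± 0.108 (1.31e-06). Peripheral myelin genes were split, with 2 higher and 4 lower of 8 in WT and 4 higher and 2 lower in cHyper. Pmp2, a lipid-binding myelin protein, rose by 6.16 ± 0.481 (3.46e-08) in WT. Pmp22 fell by 2.53 on the log2 scale (6.23e-09) and Egr2, a factor of Schwann cell myelination, by 2.06 (2.1e-07).

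The Nogo pathway, whose receptor binds Omg and Mag, had 5 higher and 1 lower of 8 genes in WT mTEChi. In cHyper 4 were higher and 1 lower. All tested genes were higher in 40.2% and lower in 29.4% in WT, and in 38.7% and 25.8% in cHyper. The 4 of 8 in cHyper lay near that share. Rtn4rl1 and Rtn4rl2, homologues of the Nogo receptor, rose by a log2 of 2.34 ± 0.247 (SE; edgeR adjusted p 8.89e-07) and 4.40 ± 0.458 (7.6e-07) in WT. Pirb, an inhibitory receptor for the same ligands, rose by 3.63 ± 0.284 (3.47e-08), and Ngfr, the coreceptor p75, fell by 1.94 on the log2 scale (1.3e-08). Of 12 other antigens of the central nervous system, 11 were higher and 1 lower in each genotype. In WT these included the neuronal genes Gad1, up by a log2 of 5.88 ± 0.219 (SE; edgeR adjusted p 5.88e-11), Rbfox3, up by 5.69 ± 0.353 (3e-09), Gria3, up by 2.05 ± 0.13 (3.88e-09), and Nefm, up by 4.04 ± 0.264 (5.16e-09).

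**Figure D4:**
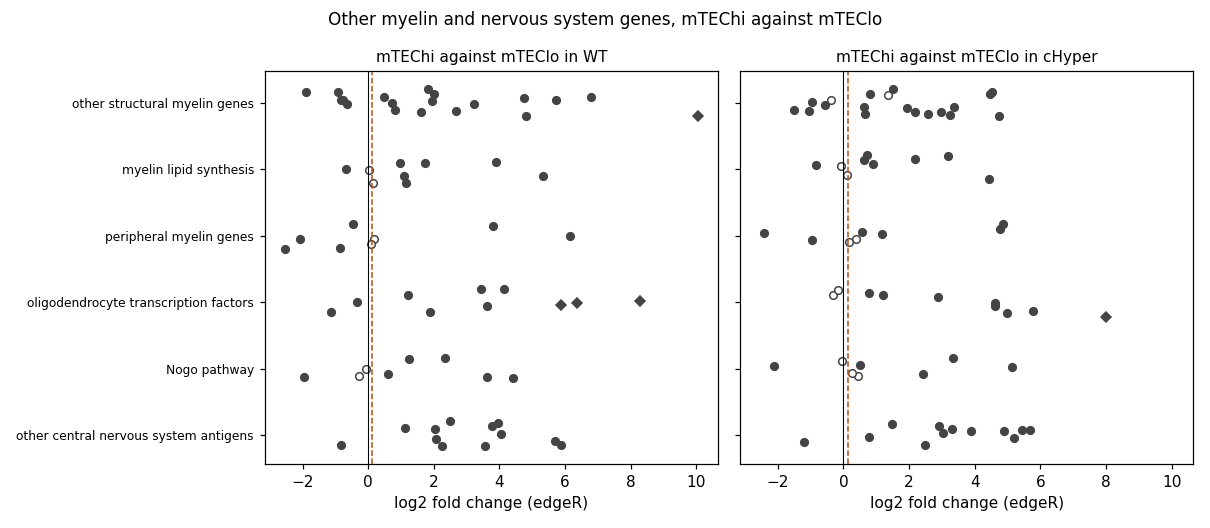
edgeR log2 fold changes of mTEChi against mTEClo for the genes of 6 lists in WT (left) and cHyper (right), 1 symbol per gene, filled where the adjusted p was under 0.05. Diamonds are genes with at most 3 fragments in a group, whose fitted value is no bound, and the dashed line is the median of all tested genes (0.12 in WT, 0.13 in cHyper). Lists of oligodendrocyte factors and nervous system antigens lie mostly to the right of 0, and peripheral myelin genes lie on both sides.

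Between genotypes fewer of these genes were called. In mTEClo 3 of the 19 structural genes were higher and 2 lower in cHyper, a split seen beside a median log2 change of -0.03. Of all tested genes, 4.53% were called higher and 4.64% lower in that comparison. The 2 lower were Cntn2, an axonal adhesion molecule, by 1.60 on the log2 scale (edgeR adjusted p 0.000437), and Tmem88b, by 0.69 (0.0101). Ermn was higher by 1.999 ± 0.414 (SE; adjusted p 0.0069), and Opalin, with 11 fragments against 0, was at least 3.504-fold higher, in both cases from few fragments. The third higher gene was Gpm6b. Peripheral myelin genes had 0 higher and 4 lower of 8, among them Pou3f1, Egr2 and Prx. Their log2 changes ran from -2.52 for Pou3f1, a factor of the Schwann cell lineage, to -0.57 for Prx, a scaffold of Schwann cells. Of the 8 genes limma-voom called 2 lower and DESeq2 4.

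Among the Nogo pathway genes in mTEClo, Rtn4r, the Nogo receptor itself, was lower in cHyper by 1.52 on the log2 scale (edgeR adjusted p 0.00113), and Pirb was lower by 2.05 (0.0045). Tnfrsf19, which can replace Ngfr in the receptor complex, was higher by 1.75 ± 0.248 (SE; 0.000413). St18 was the single factor of the oligodendrocyte list that changed, lower by 0.94 (0.00503), and no gene of lipid synthesis was called by edgeR or limma-voom, with 4 higher and 1 lower at an unadjusted p under 0.05 and 1 each way by DESeq2. Nefl and Tubb3 were lower and Gria3 and Gfap higher among the other nervous system antigens. Of that list limma-voom called 1 higher and 1 lower, and DESeq2 2 higher and 3 lower. In mTEChi edgeR called 2 genes of these 6 lists, Cers2, a ceramide synthase, lower by 0.41 (0.0278), and Drp2, a periaxin partner, higher by 0.39 ± 0.0915 (SE; 0.0433). DESeq2 also called 1 Nogo pathway gene higher and 3 lower, 1 structural gene lower and 1 other antigen lower, and limma-voom also called 1 Nogo pathway gene higher and 1 other antigen lower. With the replicate block edgeR called 5 higher and 3 lower of 84 genes, these lists and the mTEC lists together, against 4 and 1 without it.

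Markers of several other cell types were higher in mTEChi as well. The shares of all tested genes were 40.2% higher and 29.4% lower in WT, and 38.7% and 25.8% in cHyper. Myeloid and dendritic markers, 13 higher and 0 lower of 13 in each genotype, summed to 32.3 to 36.3 CPM in WT mTEClo and 533 to 714 CPM in WT mTEChi. Thymocyte markers summed to 81.9 to 110 CPM and 184 to 205 CPM in the same groups, with 10 higher and 1 lower of 15 in WT and 8 higher and 1 lower in cHyper. All 5 B cell markers were higher, as were the 4 tested endothelial markers, in both genotypes. Of 5 erythroid markers, 3 were higher in WT and 4 in cHyper. Of 8 fibroblast markers 3 were higher and 2 lower in WT and 4 and 3 in cHyper, not far from the shares of all tested genes. Their part in the rise of the myelin genes was not tested.

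The markers of myelinating glia gave mixed values. The Schwann cell and glia list summed to 254 to 301 CPM in WT mTEClo and 104 to 135 CPM in WT mTEChi, and to 240 to 288 CPM and 99.01 to 110 CPM in cHyper. In both genotypes 7 of its 10 genes were higher and 3 lower in mTEChi. The 3 lower were Scn7a, from 97.8 ± 23.6 to 14.2 ± 0.960 CPM in WT, Ncam1, from 46.6 ± 11.6 to 15.1 ± 3.37 CPM (SD, n = 3), and Ngfr. Cdh19 held 0 fragments in mTEClo and 67 in WT mTEChi. Oligodendrocyte precursor markers summed to 4.63 to 6.55 CPM in WT mTEClo and 34.0 to 38.4 CPM in WT mTEChi. In WT 4 of 5 were higher, and in cHyper 5 of 5. The exception in WT was Pdgfra, at 2.73 ± 0.094 CPM in mTEClo and 1.89 ± 0.062 CPM in mTEChi (SD, n = 3), called in neither direction. Cspg4 alone was at 17.9 ± 2.04 CPM in WT mTEChi. Sox10, Olig1 and Olig2 also stand in the list of oligodendrocyte factors, and Sox10 in the Schwann cell list, so these lists are not separate. In sorted bulk cells, fewer cells of a type and less RNA per cell cannot be told apart.

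**Figure D5:**
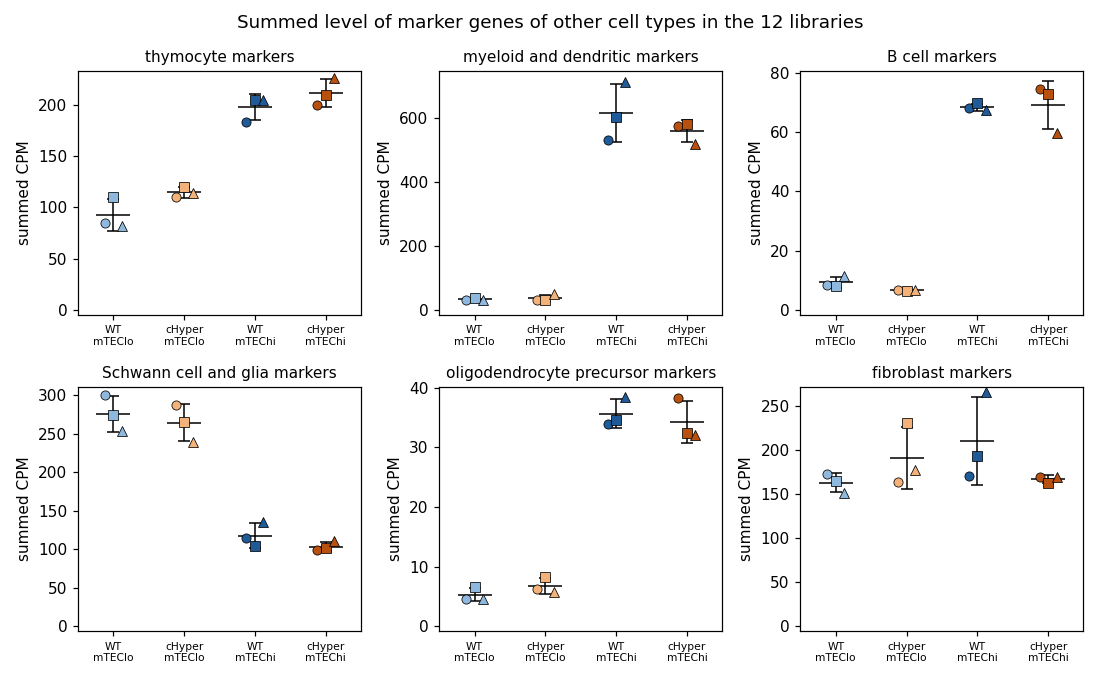
Summed TMM-scaled CPM (linear axis) of marker genes of 6 other cell types in the 12 libraries, by group, with the mean and SD of 3 libraries and circle, square and triangle for replicates 1, 2 and 3. Myeloid, B cell, thymocyte and oligodendrocyte precursor sums are higher in every mTEChi library, and the Schwann cell and glia sum is lower.

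Beside the genotype comparisons, maturity genes also differed in mTEClo. Aire was higher in cHyper by a log2 of 1.64 ± 0.171 (SE; edgeR adjusted p 2.39e-05), at 44.5 ± 6.46 CPM against 14.3 ± 2.60 CPM (SD, n = 3). Ciita, the regulator of MHC class II genes, was higher by 0.51 ± 0.113 (SE; 0.0103), and Cd80, a costimulatory ligand, was lower by 1.02 (0.0055). None of the 10 genes of that list was called in mTEChi by edgeR, DESeq2 or limma-voom, and none had an unadjusted p under 0.05.

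The mTEC identity list, which holds keratins and other genes of thymic epithelium, differed between genotypes in mTEChi. Its sum was 3230 to 3599 CPM in WT mTEChi and 4159 to 5383 CPM in cHyper mTEChi, beside 16100 to 19930 CPM in WT mTEClo and 16180 to 17380 CPM in cHyper mTEClo. In mTEChi 3 of its 8 genes were higher in cHyper and 0 lower, where 1.56% of all tested genes were called higher and 0.418% lower. Krt14 rose from 241 ± 17.8 to 543 ± 55.7 CPM (SD, n = 3; edgeR adjusted p 0.000215), Krt5 from 680 ± 108 to 1336 ± 318 CPM (0.0101), and the chemokine Ccl21a from 356 ± 37.7 to 732 ± 253 CPM (0.0124). In mTEClo 0 of the 8 were called by edgeR, DESeq2 or limma-voom, with 2 higher at an unadjusted p under 0.05.

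Few markers of other cell types were called between genotypes in mTEClo, where 4.53% of all tested genes were called higher and 4.64% lower. Of the B cell and endothelial markers edgeR called 0. Erythroid markers summed to 12.5 to 20.7 CPM in WT and 4.40 to 9.68 CPM in cHyper, with 2 of 5 lower, the globin genes Hbb-bs and Hbb-bt. In the Schwann cell and glia list 2 of 10 were lower, among them Ncam1, and the sums given above overlapped. Of 8 fibroblast markers, Col3a1 and Dpt were higher and Pdgfra lower, with sums of 151 to 173 CPM in WT and 164 to 230 CPM in cHyper. Of 15 thymocyte markers edgeR called 0 higher and 1 lower, while DESeq2 called 1 higher, limma-voom 2, and 6 had a higher value at an unadjusted p under 0.05. Their sum was 81.9 to 110 CPM in WT and 110 to 120 CPM in cHyper. Among 13 myeloid and dendritic markers 1 was lower in mTEClo. A single call in a list of 13 or 15 genes is close to the shares of all tested genes there. In mTEChi 1 of the 13, Adgre1, was lower, where 0.418% of all tested genes were. The part of these genes in the Mag, Mbp and Cnp values was not tested.

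The genes whose levels most resembled each member were ranked by Pearson r of log2 CPM over the 12 libraries, among 15983 genes. The libraries fall into mTEClo and mTEChi, which share their cell type, so r mostly records that split. Cnp was most like Ttbk1, Ccr10 and Cyp1a1 (r 0.998 each), Mbp like Ms4a2 (0.994), Cntnap2 and Pfkm (0.993 each), and Mobp like Gkn1 (0.998), Clec7a and Spx (0.996 each). Omg was most like Thsd7a (0.992), Pik3c2g and Krt13 (0.988 each). Mag had lower values, with Fezf1 at 0.934, Stac3 at 0.933 and Hgfac at 0.932. An r of at least 0.95 was found for 2766 genes with Cnp, 2656 with Mobp, 2229 with Mbp and 813 with Omg. For Mag 0 genes reached it. The genes named for Cnp, Mobp, Mbp and Omg thus stand among many with similar values.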

How the data were processed

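Bulk mRNA libraries of sorted mouse mTEC were sequenced in pairs from a strand-marking kit, per the labels' protocols. Per the submitters' processing notes, Subread 2.0.1 (featureCounts), SAMtools 1.9 and TopHat2 2.1.1 were used with build mm10. The authors deposited fragment counts per gene in 12 columns, in which the runs of 20 labelled samples had been combined, with TPM and gene lengths. The deposited TPM were used for levels between genes and entered no test. The sources used here do not state the strand setting, annotation release or filters. Of the deposited identifiers, 99.5% were in GENCODE M21.

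The main test was the quasi-likelihood F test of edgeR 4.0.16 (R 4.3.3), run on the counts with TMM scaling (filterByExpr by group, all 12 libraries in 1 fit with 8 residual degrees of freedom, Benjamini-Hochberg over 28932 genes, threshold 0.05). The procedure was also run on simulated counts with few changed genes and no replicate effect, so that run cannot test the scaling or a pairing. Ratios for sparse genes have exact binomial intervals. Alternatives were DESeq2 1.42.0, limma-voom (limma 3.58.1), other scalings, no filter, the compared groups alone, a replicate block, replicates 1 and 2 alone, and leaving out each library. From each list up to 4 genes with the smallest p were named, and all called genes where there were 4 or fewer, except 1 gene that is not reported here. Overlapping and nearest genes and the 3 most alike genes averaging 1 CPM or more (log2 CPM with a prior count of 2) were also taken by rule. Epcam was given as a check of the sorting. Trp53 was given as the gene named in the genotype, and its level cannot check a label whose meaning is not stated. Gpm6b, Olig2, Nkx2-2 and the markers of other cell types were chosen outside the rule after their values were seen. Same-numbered libraries deviated together (r 0.061 to 0.233, other pairs -0.181 to 0.05). Every same-number r was above that of every other pair. It was 0.136 to 0.206 for the genotypes in mTEChi and 0.097 to 0.18 for the genotypes in mTEClo. For the cell types it was 0.104 to 0.125 in cHyper and 0.093 to 0.233 in WT. The labels do not say what a number marks, so the main fit has no block and its tests leave this shared deviation out. Blocked values stand beside the results they change or in the closing section. The members and lists were chosen with earlier results of these data known.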

Additional observations from a re-analysis of the deposited data

How the results depend on the processing

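Among refits of single members' log2 changes, 435 kept direction and side of the threshold, 12 lost a call, 11 gained one and 16 changed sign. All 12 lost calls concern Mag between genotypes in mTEClo, whose adjusted p was 0.051 with DESeq2 size factors, 0.0568 with library totals, 0.109 with the compared groups alone and up to 0.196 without 1 library, and 0.0064 with no filter. Of these settings the first 3 left 0 members called lower, DESeq2 called 3 lower, and leaving out 1 library left 0 to 1. In mTEChi DESeq2 called 1 member lower. In cHyper, mTEChi against mTEClo, 4 to 5 members were higher without 1 library, Mag being the fifth. The 16 changes of sign, none of them called, were Omg between genotypes with replicates 1 and 2 alone (-0.48 in mTEClo, 0.058 in mTEChi), the interaction with replicates 1 and 2 alone (Omg 0.54, Cnp 0.043) or with no filter (Cnp 0.012), and fits without 1 library. Over the latter, Omg between genotypes in mTEClo ran from -0.12 to 1.07, Mbp in mTEChi from -0.13 to 0.017, Mag between cell types in WT from -0.12 to 0.43, and the interaction from -0.50 to 2.87 for Mobp and from -0.064 to 0.066 for Cnp. The cause was not tested.

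With the replicate block Mag's adjusted p was 0.0065 between genotypes in mTEClo (log2 -0.96) and 0.00641 between cell types in cHyper, and it changed no other call on a member. Counts over all genes moved more. In mTEClo 1310 genes were higher between genotypes, against 816 with the compared groups alone and 2031 with the replicate block, and 801 to 1204 without 1 library. The 1341 lower genes became 861 to 1358 without 1 library. In mTEChi 451 were higher, against 942 with the block, 254 with replicates 1 and 2 alone, 707 with DESeq2, and 252 to 490 without 1 library. The 121 lower genes became 185 with library totals, 225 with no filter, 539 with the compared groups alone, 309 with the block, 58 with replicates 1 and 2 alone, 712 with DESeq2, 352 with limma-voom, and 43 to 188 without 1 library. The interaction had 327 higher genes (571 with no filter, 684 with the block, 161 with replicates 1 and 2 alone, 635 with DESeq2, 193 to 316 without 1 library) and 268 lower (532, 502, 121 and 780 in the same order, 152 to 348 without 1 library). The share of higher calls between genotypes in mTEChi, 78.8%, was 66.0% with DESeq2 size factors and 64.4% with library totals. Library totals moved the median of all genes between cell types by 0.22 (log2) in WT and 0.17 in cHyper, less than the rises of Cnp, Mbp, Omg and Mobp. Depth limits Mog in every group and Omg and Mobp in mTEClo.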
